A study of Homo sapiens with 9 samples.

Results

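Transcripts found mostly in the m6A-immunoprecipitated fraction of PC9 cells are described here, 2391 of 18598 array transcripts with a usable level. They were selected on measured values: the methylation level of the deposited table, which is the share of a transcript's RNA in the immunoprecipitated fraction, had to average 0.70 or more over the 9 arrays. Their IDs start with ASHG19AP1, and the signal had to be clearly over background for IP and for Sup on every array, which 18609 of 50802 transcripts with such IDs met. The array held 60541 transcripts in all. The sources used here did not pair these IDs with genes, sequences or positions. Whether each transcript is protein coding was therefore not checked, and the abundance of ALKBH5 itself was not analysed here.

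N6-methyladenosine (m6A) is a methyl mark on adenosines inside mRNA, set by a methyltransferase complex built around METTL3 and METTL14 and read by YTH-domain and IGF2BP proteins that affect the stability and translation of the mRNA. ALKBH5 is a nuclear demethylase that removes the mark. In the assay, an anti-m6A antibody captures whole, unfragmented RNA molecules, so a level counts molecules with at least a single captured mark and does not say how many marks a molecule carries or where they lie.

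PC9, an established lung adenocarcinoma cell line, was transfected with 15 nM of siALKBH5#1, siALKBH5#3 or the negative control siNC, and total RNA was taken 96 h later. Each group held 3 arrays, named as biological replicates. On every array the immunoprecipitated RNA (IP) carried Cy5 and the supernatant RNA (Sup) carried Cy3, with no dye swap, so a dye effect and the fraction cannot be told apart within an array. Both knockdown groups were set against the same 3 siNC arrays and share them. By position on the slide, all siALKBH5#1 arrays lay in row 1 and all siNC arrays in row 2. A row effect and this knockdown therefore cannot be told apart. Of siALKBH5#3, replicates 1 and 2 lay in row 1 and replicate 3 in row 2. The question was how level, IP and Sup of these transcripts differed with each siRNA.

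The array of siALKBH5#1 replicate 3 stood apart. Of its 60991 spots, 12891 carried the scan program's mark for a non-uniform background, against 22 to 3445 on the other arrays. Per the labels, spike-in RNA was added to IP and Sup in equal amounts. The spike-in probes of this array had a mean log2 IP signal of 11.70, against 6.76 to 10.40 elsewhere, and single spike-in probes lay between -0.04 and 4.98 from their own mean over the arrays. The mean over these unequal probes sets the scale of that array, and values under other scalings and with array weights are given as well. For siALKBH5#1, the limma counts past the threshold, the median changes and the ratio differences of members given by ID are stated with and without it. The array of siALKBH5#1 replicate 1 had a scan date of its own and the same slide position as replicate 2 of that siRNA. The other 8 arrays shared a scan date, each at a different position. From this, and not from a slide name, siALKBH5#1 replicate 1 was taken to lie alone on another slide. A slide or scan effect and that array cannot be told apart, and a term for the slide takes the array out of the comparison.

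The mean deposited level of the 2391 transcripts ran from 0.70 to 0.945 with a median of 0.765, which describes the selection and is no finding; the median of all 18598 was 0.515. Of the 2391, 986 lay under 0.75, 675 between 0.75 and 0.80, 475 between 0.80 and 0.85, 201 between 0.85 and 0.90, and 54 at 0.90 or more. The threshold fell in a dense region. The nearest transcripts inside had means of 0.70004 and 0.70011, the nearest outside 0.69989 and 0.69986, and 213 lay within 0.01 above it and 206 within 0.01 below. Of the members, 744 reached 0.70 on all 9 arrays, while 482 did so on 8, 576 on 7, 364 on 6, 175 on 5, 49 on 4 and 1 on 3.

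By array, the median deposited level of the members was 0.842, 0.787 and 0.721 on the siNC arrays. The siALKBH5#1 arrays had 0.797, 0.776 and 0.667, and the siALKBH5#3 arrays 0.798, 0.772 and 0.780. The siNC arrays spanned every siALKBH5#3 array, and the lowest array of all was siALKBH5#1 replicate 3, where 838 members reached 0.70, against 1459 on siNC replicate 3 and 2060 or more elsewhere. For 1904 members (79.6%) the lowest of the 9 levels was on siALKBH5#1 replicate 3, and for 1503 (62.9%) the highest was on siNC replicate 1.

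**Figure D1:**
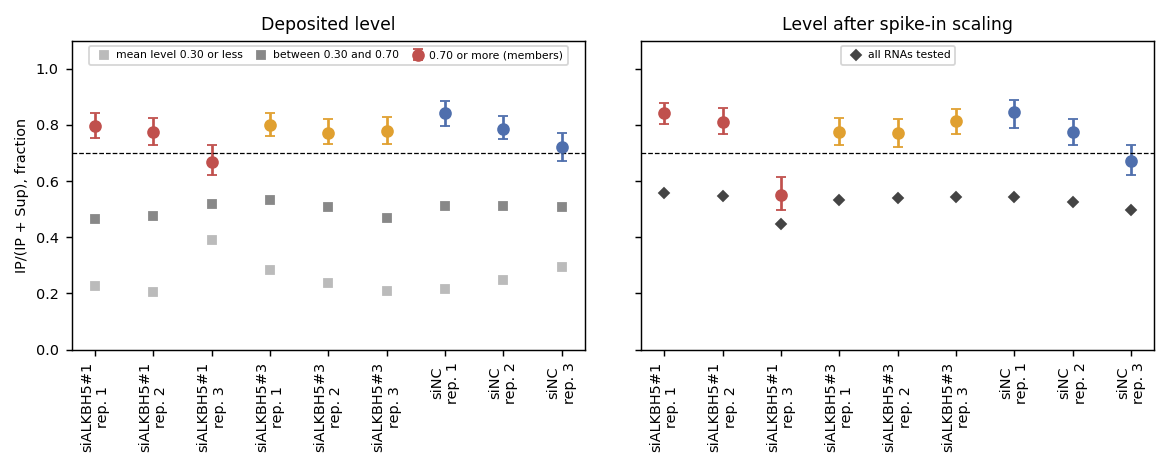
Level, IP over IP plus Sup, on each array as deposited (left) and after spike-in scaling (right). Circles are medians of the members coloured by group with bars from the lower to the upper quartile, squares are medians of transcripts with lower mean levels, diamonds are medians of all RNAs tested, and the dashed line is 0.70; the members' medians are lowest on siALKBH5#1 replicate 3 in both panels.

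When the levels were recomputed from the scanner signals with spike-in scaling, the median over the members of the mean level was 75.7% (quartiles 71.8% and 80.1%), and 2072 of the 2391 still averaged 0.70 or more. The members' median was 84.5%, 77.4% and 67.0% on the siNC arrays, 84.3%, 81.2% and 54.9% on the siALKBH5#1 arrays and 77.5%, 77.0% and 81.3% on the siALKBH5#3 arrays. On siALKBH5#1 replicate 3 the median over all RNAs tested was 44.7%, so members and other RNAs lay closest together on the array with the uneven background.

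Signal was low in the fraction left behind. Among the 18598 transcripts, the median percentile of the members was 20.0 for Sup, 49.2 for IP and 34.0 for the sum of both. Since the level is made from IP and Sup, the low Sup rank follows in part from the selection and is no separate result. Signals of different probes are not on a common scale of RNA amount, and these ranks describe signal only. By quartile of the summed signal, from dim to bright, 948, 668, 571 and 204 members were found, which is 20.4%, 14.4%, 12.3% and 4.39% of the transcripts in each quartile. IDs of the series ASHG19AP1A gave 208 members (10.5% of those with a usable level) and ASHG19AP1B gave 2183 (13.1%), and what separates the series is not given in the sources used here.

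**Figure D2:**
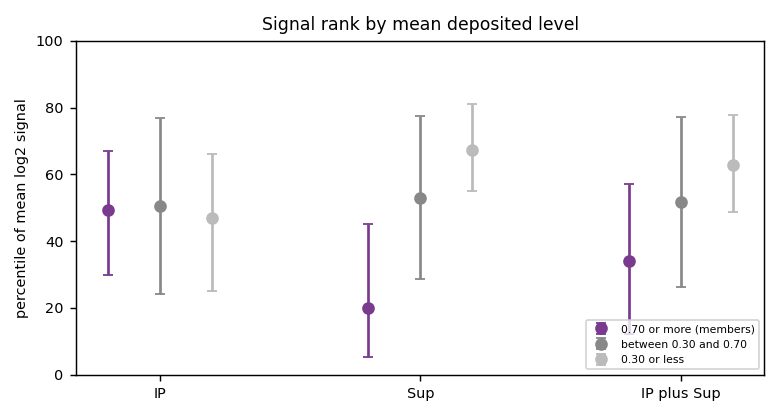
Percentile of the mean log2 signal among 18598 transcripts, for IP, Sup and their sum, with transcripts split by mean deposited level. Points are medians and bars run from the lower to the upper quartile; the members have their lowest median percentile, 20.0, in Sup.

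The within-group SD of the deposited level had a median of 0.0553 over the members, against 0.0528 for transcripts between 0.30 and 0.70 and 0.0727 for those at 0.30 or less. Leaving out siALKBH5#1 replicate 3 gave 0.0445, 0.0443 and 0.0471. On the scaled log2(IP/Sup) the median SD was 0.82 for the members, against 0.45 and 0.39. Without that array the ratio SDs were 0.52, 0.31 and 0.33. For scaled IP and Sup, the members' median SD was 1.43 and 0.71 with that array and 0.65 and 0.31 without it. Of 2352 members with a value on every array, 2329 (99.0%) had their lowest scaled IP there, against 66.2% of the transcripts between 0.30 and 0.70 and 61.2% of those at 0.30 or less.

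Of the 19779 RNAs tested with limma, 2389 were members, since 2 members had too few values in a group. The threshold of the methods was a fold change over 1.5 in either direction with an unadjusted P under 0.01. With spike-in scaling and all arrays at equal weight, no member had an adjusted P under 0.05 in limma in any of the 8 comparisons below, where 0% of all RNAs did so, while the methods' t-test gave 1 member with such a value, for Sup with siALKBH5#3 (0.00506% of all RNAs). On the level scale, a transcript with a siNC level above 66.7% cannot rise 1.5-fold, and this held for 2226 members (93.1%), against 20.0% of all RNAs. The IP/Sup ratio has no such ceiling.

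The level of no member passed the threshold with either siRNA, under limma or the methods' t-test. Over all RNAs tested, 0.126% passed upwards and 0.0455% downwards with siALKBH5#1, and 0.0961% and 0.0202% with siALKBH5#3. By the t-test 0.0556% and 0% of all RNAs passed with siALKBH5#1, and 0.0455% and 0% with siALKBH5#3. At an unadjusted P under 0.05, limma gave 4 members (0.167%) with siALKBH5#1, against 4.73% of all RNAs, and 1 (0.0419%) with siALKBH5#3, against 2.09%. The median log2 change of level was -0.07 with siALKBH5#1, against -0.03 over all RNAs, and 0.05 with siALKBH5#3, against 0.04. With loess, median centring, no scaling or the deposited levels, the medians were -0.16 to -0.03 and 0.01 to 0.06. Relative to all RNAs they ran from -0.04 to 0.02 and from -0.03 to 0.02, where the values as reported were -0.04 and 0.01. Without siALKBH5#1 replicate 3 the median with siALKBH5#1 was 0.12, against 0.11 over all RNAs, so its sign turned without that array. In the same fit no member passed the threshold of the methods, where 1.98% of all RNAs passed upwards and 0.97% downwards with siALKBH5#1 and 0.169% and 0.0719% with siALKBH5#3. At an unadjusted P under 0.05, limma then gave 111 members (4.65%) with siALKBH5#1, against 27.7% of all RNAs, and 20 (0.838%) with siALKBH5#3, against 7.85%. In that fit an adjusted P under 0.05 was reached by 1 member (0.0419%) with siALKBH5#1, upwards, against 2.39% of all RNAs upwards and 1.02% downwards. Without siNC replicate 3 the median level change with siALKBH5#3 was -0.03, and without siNC replicate 1 it was 0.12, against 0.08 over all RNAs. The median with siALKBH5#1 was -0.17 without its replicate 1, against -0.10 over all RNAs, and with array weights it was 0.07, against 0.06.

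The IP/Sup ratio was higher past the threshold for 3 members with siALKBH5#1 (0.126% of those tested, against 0.162% of all RNAs) and lower for 0, against 0.329%; at an unadjusted P under 0.05, limma gave 21 members (0.879%), against 4.22%. With the replicate number as a block, 2 members were higher (0.0837%) and 10 lower (0.419%), against 0.091% and 0.339% of all RNAs, so most calls then pointed downwards. At an unadjusted P under 0.05, limma gave 100 members (4.19%) with that block, against 4.7%. With siALKBH5#3 the ratio count was 0 in both directions, against 0.0859% and 0.0101% of all RNAs, and limma gave 6 members (0.251%) at an unadjusted P under 0.05, against 1.33%. The methods' t-test gave 0 members past the threshold there, against 0.253% and 0.0202% of all RNAs. The members' median log2(IP/Sup) was 2.42, 2.11 and 0.28 on the siALKBH5#1 arrays, 1.79, 1.74 and 2.12 on the siALKBH5#3 arrays and 2.44, 1.77 and 1.02 on the siNC arrays, so each knockdown group overlapped siNC, and siALKBH5#1 replicate 3 was the lowest array. The median change was -0.10 with siALKBH5#1 and 0.16 with siALKBH5#3, beside -0.01 and 0.08 over all RNAs. Over loess, centring, no scaling and the deposited levels, the medians ran from -0.37 to -0.06 with siALKBH5#1 and from 0.01 to 0.22 with siALKBH5#3. Relative to all RNAs these were -0.14 to -0.08 and 0.04 to 0.08, where the values as reported were -0.09 and 0.08. With array weights the medians were 0.38 and 0.04, against 0.15 and 0.05 over all RNAs, so the sign with siALKBH5#1 turned. The 3 members past the threshold with siALKBH5#1 had log2 ratio changes of 1.08, 1.01 and 0.96, with percentiles of the summed signal of 0.0538, 46.5 and 0.0269, so 2 of them were among the dimmest transcripts. By the methods' t-test 1 member (0.0419%) passed, upwards, against 0.293% of all RNAs upwards and 0.748% downwards.

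Arrays of siRNA and siNC did not overlap in the ratio for 6 members upwards and 2 downwards with siALKBH5#1, of 2352 with a value on every array, where 3.5% and 4.65% of all RNAs did not overlap. With siALKBH5#3 the counts were 81 (3.44%) and 3 (0.128%), against 10.2% and 1.36%. Without siALKBH5#1 replicate 3, the 2 remaining siALKBH5#1 arrays lay above siNC for 746 of 2373 members (31.4%) and below for 2 (0.0843%), against 33.9% and 11.9% of all RNAs. These shares were below the background in each direction. The level is the same quantity on another scale and gives the same counts.

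Without siALKBH5#1 replicate 3, the ratio with siALKBH5#1 was higher past the threshold for 209 of 2388 members (8.75%) and lower for 0, against 7.91% and 2.29% of all RNAs. The median change was then 0.57, against 0.25 over all RNAs. With siALKBH5#3, 19 members were higher and 3 lower, against 0.924% and 0.108%; that array also enters the estimate of spread that all comparisons share. No member had an adjusted P under 0.05 for the ratio in that fit, where limma gave 667 members (27.9%) at an unadjusted P under 0.05 with siALKBH5#1, against 28.6% of all RNAs, and 127 (5.32%) with siALKBH5#3, against 5.92%. When replicate 1 of siALKBH5#1 was left out instead, the median ratio change was -0.53, against -0.17 over all RNAs. Of 2365 members 6 passed (0.254%), all downwards, against 0.0757% of all RNAs upwards and 0.184% downwards. Without siNC replicate 3 the median ratio change with siALKBH5#3 was -0.19, against 0.0021 over all RNAs. Without siNC replicate 1 it was 0.50, against 0.18. With siALKBH5#1 the median was -0.46 without siNC replicate 3, against -0.10, and 0.22 without siNC replicate 1, against 0.10. In these 2 fits, 5 members (all down, 0.21 vs 0.316% of all RNAs) and 6 members (all up, 0.252 vs 0.207%) passed with siALKBH5#1.

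IP passed the threshold for 0 members with siALKBH5#1, where limma gave 5 (0.209%) at an unadjusted P under 0.05, against 2.13% of all RNAs. The methods' t-test also gave 0 there, against 0.369% and 0.273%. With siALKBH5#3, 0 members were higher and 1 lower, and limma gave 5 (0.209%) at an unadjusted P under 0.05, against 1.07%. The t-test gave 2 upwards (0.0837%) and 1 downwards (0.0419%), against 0.733% and 0.238%. By limma, over all RNAs, 0.111% were higher and 0.162% lower with siALKBH5#1, and 0.147% and 0.091% with siALKBH5#3. The members' median scaled log2 IP was -0.76, -0.66 and -4.65 on the siALKBH5#1 arrays, -1.55, -1.50 and -1.0 on the siALKBH5#3 arrays, and -0.73, -1.70 and -2.63 on the siNC arrays. The siALKBH5#3 arrays lay inside the range of siNC, whereas siALKBH5#1 replicate 2 lay just above it and replicate 3 far below it. The median IP change was -0.33 with siALKBH5#1, against -0.07 over all RNAs, and 0.30 with siALKBH5#3, against 0.24. Relative to all RNAs these were -0.26 and 0.06. With loess, centring or no scaling, the medians ran from -0.40 to -0.16 and from 0.05 to 0.21, or relative to all RNAs from -0.25 to -0.16 and from 0.05 to 0.06. With array weights they were 0.90 and 0.22, against 0.67 and 0.17 over all RNAs. Leaving out siALKBH5#1 replicate 1 gave a median of -0.94 with siALKBH5#1, against -0.36.

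Non-overlapping arrays in IP were found for 0 members upwards and 4 downwards with siALKBH5#1, against 2.46% and 1.84% of all RNAs. With siALKBH5#3 they were found for 94 (4.0%) and 22 (0.935%), against 8.5% and 2.21%. When siALKBH5#1 replicate 3 was left out, the counts with siALKBH5#1 were 892 (37.6%) and 4 (0.169%), against 40.8% and 10.4%. Without siALKBH5#1 replicate 3, IP with siALKBH5#1 was higher past the threshold for 198 members (8.29%) and lower for 1, against 7.57% and 3.64% of all RNAs, and the median change was 0.91, against 0.68. At an unadjusted P under 0.05, limma then gave 830 members (34.8%) with siALKBH5#1, against 35.3%, and 229 (9.59%) with siALKBH5#3, against 8.09%, so the latter share passed from below to above that of all RNAs. With siALKBH5#3 it was higher for 54 and lower for 5, against 1.88% and 0.38%. An adjusted P under 0.05 was reached by 18 members (0.754%) upwards and 0 downwards with siALKBH5#1, against 0.698% and 1.11% of all RNAs, and by 1 upwards and 1 downwards (0.0419% each) with siALKBH5#3, against 0.0257% and 0.00513%. Without siNC replicate 3 the median IP change with siALKBH5#3 was -0.14, against 0.03 over all RNAs. Without siNC replicate 1 it was 0.77, against 0.48, and the median with siALKBH5#1 was 0.13, against 0.21.

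Sup was higher past the threshold for 5 members and lower for 6 with siALKBH5#1, which is 0.209% and 0.251% of those tested, against 0.212% and 0.116% of all RNAs. With siALKBH5#3, 7 were higher (0.293%) and 4 lower (0.167%), against 0.49% and 0.172%. At an unadjusted P under 0.05, limma gave 46 members (1.93%) with siALKBH5#1, against 1.65%, and 52 (2.18%) with siALKBH5#3, against 2.51%. The members' median scaled log2 Sup was -3.28, -2.88 and -5.02 on the siALKBH5#1 arrays, -3.43, -3.31 and -3.21 on the siALKBH5#3 arrays and -3.11, -3.52 and -3.70 on the siNC arrays. Here too siALKBH5#3 fell within the siNC range, with siALKBH5#1 replicate 2 above it and replicate 3 below. The median Sup change was -0.23 with siALKBH5#1 and 0.16 with siALKBH5#3, beside -0.07 and 0.14 over all RNAs. With loess, centring or no scaling, the medians were 0.0033, -0.20 and -0.02 with siALKBH5#1 and 0.0061, 0.02 and 0.0053 with siALKBH5#3. Relative to all RNAs they ran from -0.16 to 0.0013 and from 0.0026 to 0.02, where the values as reported were -0.16 and 0.02. Array weights gave 0.28 and 0.17, against 0.28 and 0.11 over all RNAs. The members past the threshold had log2 Sup changes of 1.26 to 2.13 and -2.22 to -1.34 with siALKBH5#1, and 1.32 to 2.76 and -2.32 to -1.17 with siALKBH5#3. The methods' t-test gave 2 members upwards and 2 downwards (0.0837% each) with siALKBH5#1, against 0.319% and 0.0809% of all RNAs, and 86 (3.6%) and 18 (0.753%) with siALKBH5#3, against 2.33% and 0.42%. The median Sup change with siALKBH5#1 was -0.43 without its replicate 1, against -0.20 over all RNAs. Without siALKBH5#1 replicate 2 the median was -0.62, against -0.34. In that fit 26 members passed the threshold, all downwards (1.099%), against 0.326% of all RNAs in either direction. At an unadjusted P under 0.05, limma then gave 184 members (7.78%), against 2.48%.

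With siALKBH5#3, 408 members (17.3%) had all knockdown arrays above all siNC arrays and 145 (6.16%) below, against 13.5% and 3.6% of all RNAs. With siALKBH5#1 the counts were 11 (0.468%) and 51 (2.17%), against 2.15% and 0.695%; leaving out siALKBH5#1 replicate 3 gave 794 (33.5%) and 61 (2.57%), against 29.1% and 6.75%. Without siALKBH5#1 replicate 3, Sup with siALKBH5#1 was higher past the threshold for 285 members (11.9%) and lower for 11, against 9.33% and 2.83% of all RNAs, with a median change of 0.37, against 0.35. At an unadjusted P under 0.05, limma then gave 601 members (25.2%) with siALKBH5#1, against 26.9%, and 411 (17.2%) with siALKBH5#3, against 12.4%, so each share moved to the other side of that of all RNAs. With siALKBH5#3 it was higher for 146 (6.11%) and lower for 35 (1.47%), against 4.68% and 0.898%. An adjusted P under 0.05 was reached by 180 members (7.54%) upwards and 8 (0.335%) downwards with siALKBH5#1, against 5.6% and 2.01% of all RNAs, and by 51 (2.14%) and 8 (0.335%) with siALKBH5#3, against 1.85% and 0.293%.

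**Figure D3:**
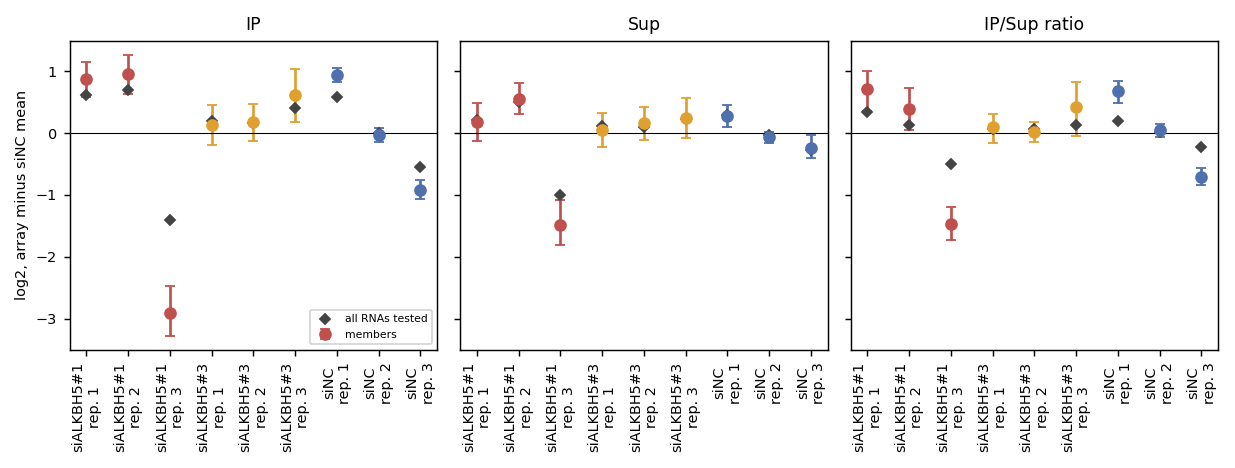
Scaled log2 IP, Sup and IP/Sup ratio on each array minus the mean of the siNC arrays. Circles are medians over the members tested, coloured by group, with bars from the lower to the upper quartile, and diamonds are medians over all RNAs tested; siALKBH5#1 replicate 3 lies at -2.90 in IP, where the other arrays lie between -0.92 and 0.95.

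The transcript with the lowest IP relative to siNC past the threshold with siALKBH5#3, singled out after its values were seen, had a mean deposited level of 0.704 and a summed signal at percentile 84.9. Its scaled log2 IP was 1.00, 0.94 and 1.46 with siALKBH5#3, against 4.46, 3.50 and 3.40 with siNC and 3.86, 3.84 and 2.79 with siALKBH5#1. Its scaled log2 Sup was -0.19, -0.68 and 0.14 with siALKBH5#3, against 1.54, 1.96 and 2.72 with siNC and 2.10, 2.42 and 2.33 with siALKBH5#1. The siALKBH5#3 arrays lay below all others in both fractions. The log2 changes with siALKBH5#3 were -2.65 ± 0.48 (SE) for IP (limma adjusted P = 1.00, unadjusted P = 0.000373) and -2.32 ± 0.39 for Sup (limma adjusted P = 0.367, unadjusted P = 9.64e-05). Its log2 level differed from siNC by -0.04 with siALKBH5#3, and there the groups overlapped. Its IP call was lost without scaling and with the position row as a block, where 0 members were lower in IP. That row term was set by the siALKBH5#3 arrays alone, since siNC and siALKBH5#1 each lay in a single row.

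For each siRNA, the members with the largest positive and negative ratio difference without overlap are given by ID. None of the 4 ratio differences passed the threshold. ASHG19AP1B12738684211 had a log2(IP/Sup) of 1.43, 2.30 and 1.56 with siALKBH5#1 and 1.35, 0.45 and 0.07 with siNC, a difference of 1.14 ± 0.42 (SE; limma adjusted P = 0.999). It was among the dimmest transcripts, at percentile 0.0753 of the summed signal, and its deposited levels, 0.640, 0.774 and 0.844 with siALKBH5#1 and 0.731, 0.617 and 0.591 with siNC, did overlap. ASHG19AP1B10009712111 had 1.20, 1.02 and 0.10 with siALKBH5#1 and 3.25, 1.96 and 1.42 with siNC, a difference of -1.44 ± 0.51 (SE; limma adjusted P = 0.999). Without siALKBH5#1 replicate 3 the differences were 1.24 and -1.10.

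With siALKBH5#3, ASHG19AP1B10015423611 had a log2(IP/Sup) of 3.09, 2.29 and 3.96, against 1.40, 1.98 and 1.43 with siNC, a difference of 1.51 ± 0.66 (SE; limma adjusted P = 1.00). ASHG19AP1B10014951211 had 0.61, 0.84 and 0.64, against 2.63, 1.98 and 1.19, a difference of -1.24 ± 0.47 (SE; limma adjusted P = 1.00). For the latter member, scaled log2 Sup was -2.47, -2.94 and -2.16 with siALKBH5#3 and -5.00, -5.30 and -5.55 with siNC, and its Sup rose by 2.76 ± 0.62 (SE; limma adjusted P = 0.852), past the threshold of the methods. Its IP was also higher on all siALKBH5#3 arrays than on the siNC arrays, by 1.52 ± 1.05 (SE; limma adjusted P = 1.00).

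**Figure D4:**
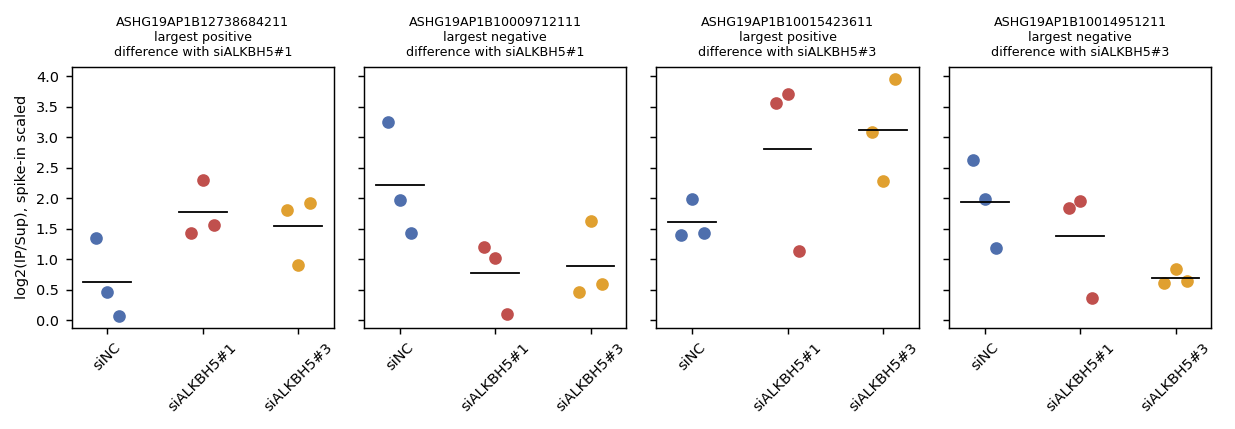
Spike-in scaled log2(IP/Sup) of 4 members, with a point per array and a line at the group mean. The siRNA named above each panel and siNC do not overlap there, which was the condition for showing the member.

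With siALKBH5#3 the median ratio change was 0.16, 0.17 and 0.16 for mean levels of 0.70 to 0.75, 0.75 to 0.80 and 0.80 or more, and with siALKBH5#1 it was -0.06, -0.09 and -0.16, or 0.56, 0.59 and 0.56 without siALKBH5#1 replicate 3. By quartile of summed signal among the 18598 transcripts, from dim to bright, siALKBH5#3 gave median ratio changes of 0.24, 0.20, 0.08 and -0.06. The same quartiles had medians of 0.01, -0.08, -0.26 and -0.28 for siALKBH5#1, or 0.64, 0.59, 0.43 and 0.33 without siALKBH5#1 replicate 3. Both comparisons share their siNC arrays, and the differences between quartiles were not tested.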

How the data were processed

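Per the file headers, the scanner files hold spot intensity from the Agilent software, background-subtracted by it. The deposited level is a fraction that the authors computed from IP and Sup. The log2(IP/Sup) derived from it equals the software's dye-normalized log2 ratio plus a constant per array between -0.03 and 0.34, whose origin is not known. The median deposited level per array over the table was 0.479 to 0.545. The submitters' notes name Agilent Feature Extraction 11.0.1.1. Here, spots with an outlier mark were dropped, and the mean log2 of 12 spike-in probes was subtracted per array and channel. Of 102, 13 lay over background everywhere, and 1 lacked a value on some arrays. That probe was at first averaged where present; it was dropped from all arrays after the members' results had been seen, and the earlier scaling is given as an alternative chosen after seeing the data. RNAs with at least 2 values per group were tested in 1 model of 3 groups (limma 3.58.1, R 4.3.3), adjusted by Benjamini-Hochberg over all 19779 RNAs. Labels do not say that a replicate number marks a shared culture or day. Deviations of same-numbered siALKBH5#1 and siNC arrays correlated at 0.23 to 0.80 over all RNAs and 0.22 to 0.36 over the members for the ratio, and over the members at 0.30 to 0.64 for IP and 0.36 to 0.71 for Sup, while over all RNAs IP gave -0.01 to 0.84 and Sup -0.08 to 0.65. Over all RNAs, however, the ratio of siALKBH5#1 replicate 2 correlated more with siNC replicate 1 (0.47) than with its own number (0.23). Over the members it did not (-0.09 against 0.22). The numbers were taken to pair these arrays for the ratio, from the data alone and after the counts had been seen. Whether they mark true pairs is not known. The model without the block stayed as planned. The code was tested on simulated data. Alternatives changed signal, background correction, scaling, filter, block, weights, arrays and test. The number of arrays limits the precision, and P-values measure only the spread between them. Members, lists and tests were chosen with earlier results of these data known. IDs were printed for the largest positive and negative ratio difference per siRNA, among members with all values and no overlap.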

Additional observations from a re-analysis of the deposited data

How the results depend on the processing

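The 2 level counts were 0 under every alternative. Why counts differed was not tested. Brackets give direction and share of members vs all RNAs called. Members past the threshold for the ratio with siALKBH5#1, 3 up as reported, numbered 0 in limma with median signals, normexp correction or a looser background filter (0.228%, 0.116% and 1.15% of all RNAs, with 18, 25 and 13 members at an unadjusted P under 0.05). They numbered 26 (25 down, 1.09 vs 1.39%) with loess and quantile normalization, 12 (7 down, 0.502 vs 0.844%) with median centring, 2 (both down, 0.0837 vs 0.0657%) without scaling, 57 (all down, 2.38 vs 2.02%) from the deposited levels, 599 (582 up, 25.1 vs 26.4%) with array weights and 1 (up, 0.0419 vs 1.04%) by the methods' t-test. With siALKBH5#3, 0 as reported, they were 15 (12 up, 0.628 vs 0.268%) with loess, 5 (2 up, 0.209 vs 0.233%) with centring, 9 (3 up, 0.376 vs 0.27%) from deposited levels and 83 (58 up, 3.47 vs 3.49%) with weights. The slide block, taking up siALKBH5#1 replicate 1, gave 6 (all down, 0.251 vs 0.278%) and 1 (up, 0.0419 vs 0.106%) for the ratio.

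For IP with siALKBH5#1 they numbered 67 (59 down, 2.80 vs 2.45%) with loess, 20 (16 down, 0.837 vs 0.839%) with centring, 2 (both down, 0.0837 vs 0.0607%) without scaling, 1 (down, 0.0418 vs 0.21%) with outlier spots kept and 1689 (1685 up, 70.7 vs 63.5%) with weights. With siALKBH5#3 they were 87 (63 up, 3.64 vs 2.65%), 17 (11 down, 0.712 vs 1.02%) and 4 (all up, 0.167 vs 0.0657%) with loess, centring and no scaling, 574 (471 up, 24.0 vs 20.4%) with weights and 3 (2 up, 0.126 vs 0.971%) by the t-test.

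For Sup with siALKBH5#1 they numbered 3 (all up, 0.126 vs 0.187%) with normexp, 34 (15 up, 1.42 vs 1.63%) with loess, 67 (18 up, 2.80 vs 1.59%) with centring, 4 (3 up, 0.167 vs 0.253%) without scaling, 6 (4 up, 0.251 vs 0.17%) with the looser filter, 638 (566 up, 26.7 vs 28.6%) with weights and 4 (2 up, 0.167 vs 0.399%) by the t-test. With siALKBH5#3 they were 7 (5 up, 0.293 vs 0.556%) with median signals, 2 (1 up, 0.0837 vs 0.42%) with normexp, 55 (34 up, 2.30 vs 2.82%) with loess, 74 (41 up, 3.10 vs 2.43%) with centring, 424 (337 up, 17.7 vs 13.9%) with weights and 104 (86 up, 4.35 vs 2.75%) by the t-test.

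An adjusted P under 0.05 was reached with weights for siALKBH5#1 and siALKBH5#3, by 128 (5.36 vs 30.4%) and 12 (0.502 vs 5.24%) members for level, 723 (30.3 vs 33.2%) and 50 (2.09 vs 3.46%) for the ratio, 1932 (80.9 vs 73.1%) and 593 (24.8 vs 21.9%) for IP, and 1055 (44.2 vs 47.7%) and 908 (38.0 vs 29.3%) for Sup. With loess it was 3 (0.126 vs 0.101%) for IP and 10 (0.419 vs 0.683%) for Sup, both with siALKBH5#3.

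Leaving out each array in turn gave, with siALKBH5#1 and siALKBH5#3, 0 to 209 and 0 to 22 members for the ratio. IP gave 0 to 199 and 1 to 59, and Sup 2 to 296 and 3 to 181. Each maximum was without siALKBH5#1 replicate 3 (8.75 vs 10.2%, 0.921 vs 1.03%, 8.33 vs 11.2%, 2.47 vs 2.26%, 12.4 vs 12.2%, 7.58 vs 5.57%). Members' medians ran from -0.53 to 0.57 and -0.19 to 0.50 for the ratio, -0.99 to 0.91 and -0.14 to 0.77 for IP, and -0.62 to 0.37 and 0.04 to 0.30 for Sup. Of 23 alternatives, 2 and 6 put the positive and negative ratio difference given by ID past the threshold with siALKBH5#1, and 4 and 6 with siALKBH5#3. A threshold of 0.65 gave 3588 members and 0.75 gave 1405.

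With the replicate block, counts with siALKBH5#1 and siALKBH5#3 were 12 (2 up, 0.502 vs 0.43%) and 1 (down, 0.0419 vs 0.0961%) for the ratio, 0 and 1 for IP, and 12 (6 up, 0.502 vs 0.324%) and 12 (10 up, 0.502 vs 0.586%) for Sup. With siALKBH5#3, same-number correlations were negative over all RNAs, none the best for its array, and -0.46 to 0.15 over the members.

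Chosen after seeing the data were the position row as a block, which gave 1 member (down, 0.0419 vs 0.506%) for the ratio with siALKBH5#1, 0 for IP with siALKBH5#3 and 3 for Sup with each siRNA (all down, 0.126 vs 0.0152%, and 2 up, 0.126 vs 0.111%), and the spike-in set that differed between arrays. The position row gave medians of 0.01 and 0.10 for level, 0.28 and 0.41 for the ratio, 0.15 and 0.62 for IP, and -0.09 and 0.25 for Sup (all RNAs: -0.0029, 0.06, 0.06, 0.13, 0.20, 0.39, 0.08 and 0.23), so 3 signs with siALKBH5#1 turned. The spike-in set gave the same ratio and IP counts, 9 (5 up, 0.377 vs 0.313%) and 10 (7 up, 0.419 vs 0.607%) for Sup, and medians of -0.04 and 0.21 for the ratio and -0.25 and 0.39 for IP.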
